A study of Mus musculus with 2 samples.

Results

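The CXCR3 and CXCR6 chemokine axis comprises 6 genes, chosen by symbol as its ligands and receptors: the ligands Cxcl9, Cxcl10, Cxcl11 and Cxcl16 and the receptors Cxcr3 and Cxcr6. Counts of 5 of them were read, among 32285 genes listed for each library, and Cxcl11 was not analysed here. KPC mouse pancreatic cancer cells were implanted orthotopically, and the tumours were taken 21 days later, dissociated, enriched for live cells and profiled by droplet-based single-cell RNA-seq. The control library came from Porcnfl/fl littermates, which carry the floxed allele without Cre, and the knockout library from Csf1r-Cre;Porcnfl/fl mice, in which Cre is driven by the promoter of the macrophage growth factor receptor gene Csf1r. Porcn encodes the acyltransferase that lipid-modifies WNT ligands, and the design asks how loss of myeloid WNT secretion affects the tumour microenvironment. The implanted cancer cells do not carry the deletion, Csf1r-Cre can act in other myeloid cells than macrophages, and the age of the mice is not given in the sources used here. Each library pooled the tumours of 5 mice, and there was 1 library per genotype, so no test between genotypes was possible. Differences are given as ratios with 95% exact intervals, which cover counting error only and not the spread between mice.

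CXCL9, CXCL10 and CXCL11 bind CXCR3, a receptor carried by activated T cells and NK cells, and their genes are induced by interferons. CXCL16 is made as a transmembrane protein that is shed by ADAM proteases, and it binds CXCR6, which marks effector, tissue-resident and NKT cells. In tumours, CXCR3 ligands from dendritic cells and macrophages are known to attract and position T cells, and CXCL16 from dendritic cells is known to hold CXCR6 T cells in place.

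The 3 CXCR3 ligand genes lie side by side on mouse chromosome 5, within 44.1 kb and all on the minus strand of GRCm38. Cxcl9 spans chr5:92321347-92328079, Cxcl10 spans chr5:92346638-92348889 and Cxcl11 spans chr5:92359544-92365485. Cxcl11 is annotated as a polymorphic pseudogene by GENCODE and as a transcribed pseudogene by RefSeq in this reference genome. Cxcl16 lies at chr11:70453983-70459984 on the minus strand, Cxcr3 at chrX:101731535-101734269 on the minus strand and Cxcr6 at chr9:123806475-123811760 on the plus strand. RefSeq promoter sequence (GRCm38.p6) was matched by symbol for Cxcl9, Cxcl10, Cxcr3 and Cxcr6, and not for Cxcl16. The 250 bases before the start of the 2 CXCR3 ligand genes are shown because the pair differed in matches to the motif letters searched. Both are written along the minus strand, 5′ to 3′, with motif matches in capitals.
Cxcl9, chr5:92328080-92328329: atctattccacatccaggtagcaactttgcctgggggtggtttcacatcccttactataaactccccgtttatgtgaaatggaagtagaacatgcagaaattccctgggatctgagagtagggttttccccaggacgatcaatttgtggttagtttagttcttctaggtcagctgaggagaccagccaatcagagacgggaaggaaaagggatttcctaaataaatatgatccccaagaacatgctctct
Cxcl10, chr5:92348890-92349139: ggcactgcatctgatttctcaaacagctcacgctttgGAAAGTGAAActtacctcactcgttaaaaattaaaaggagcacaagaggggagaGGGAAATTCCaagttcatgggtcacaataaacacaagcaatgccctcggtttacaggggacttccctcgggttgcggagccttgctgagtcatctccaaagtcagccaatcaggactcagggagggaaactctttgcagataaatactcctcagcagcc

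The search covered both strands for an interferon-stimulated response element (GAAA and GAAA separated by any 2 bases), a gamma-activated site (TTCNNNGAA), a kappa B site (GGGA and TTCC separated by any 2 bases) and a T-box site (AGGTGT). The Cxcl10 promoter held GAAAGTGAAA 213 to 204 bases before the start and GGGAAATTCC 159 to 150 bases before it, with no overlap between the matches. Of 32817 promoters of the same length, 2.97% held the response element, 1.21% the kappa B motif and 0.0457% (15 promoters) held both. The gamma-activated site was found in 7.01% of promoters and the T-box site in 11.8%. No match to any of the 4 motifs was found in the windows of Cxcl9, Cxcr3 or Cxcr6. A match describes letters in the sequence and is not a measured site. Looser forms of these motifs were not searched, so a window without a match may still hold them.

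After filters on genes and mitochondrial reads and removal of called doublets, 11516 control and 10467 knockout cells were kept, with medians of 12168 and 10109 UMIs per cell. The libraries shared 46 cell barcodes, 38 of them among kept cells. The cells carry the label of tumour-infiltrating cells, but epithelial/tumour-like cells made up 65.5% of the control and 41.3% of the knockout library. T-like cells numbered 192 in the control and 1643 in the knockout library, and monocyte/macrophage-like cells 502 and 556. All 12 T markers and all 12 monocyte/macrophage markers were detected, and summed T markers stood at 6753 and 6889 CPM (UMIs of a gene scaled to 1000000 UMIs of the class) in T-like cells against 5.67 and 32.7 CPM in all other cells. Cells were clustered without the 6 genes, and classes were named from marker lists. The size of the epithelial/tumour-like class depended on the clustering. It held 7538 control and 4322 knockout cells here, 4102 and 2584 at coarser resolution 0.5, and 6077 and 5267 at finer resolution 2. Its summed markers stood at 6662 and 7052 CPM, against 4018 and 3296 CPM in all other cells. Those other cells include unnamed clusters, 18.3% of control and 14.6% of knockout cells, most of them with tumour markers. Few control cells were B-like (8 against 446), cDC2-like (6 against 87) or migratory DC-like (18 against 70), so differences in these classes rest on little. Porcn itself had 8 control and 4 knockout UMIs in monocyte/macrophage-like cells, a ratio of 0.4 (0.0882 to 1.49), so the deletion could not be checked at this depth. It was also lower in epithelial/tumour-like cells, at 880 and 356 UMIs, a ratio of 0.674 (0.595 to 0.764). Whether the deleted part includes the counted 3′ end is not given in the sources used here.

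In the 2 libraries as wholes, every analysed gene of the axis was higher in the knockout library, by little for the ligands and by much for the receptors. Cxcl9 stood at 154 CPM in the control and 269 CPM in the knockout library, a ratio of 1.75 (1.72 to 1.77). Cxcl10 stood at 154 and 222 CPM, a ratio of 1.45 (1.42 to 1.47), and Cxcl16 at 12.9 and 18.3 CPM, a ratio of 1.41 (1.33 to 1.50). Cxcr3 rested on 130 control and 1027 knockout UMIs, or 0.77 and 7.95 CPM, a ratio of 10.3 (8.59 to 12.5). Cxcr6 rested on 363 and 2085 UMIs, or 2.15 and 16.1 CPM, a ratio of 7.50 (6.70 to 8.41). In such whole-library values, more cells of a type and more RNA per cell cannot be told apart.

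The whole-library ratios were split into a part from class levels and a part from class shares, with all unnamed cells taken as a class. A shift between clusters inside a class counts as a difference in level here. With clusters weighted alike, the epithelial/tumour-like ratio was 1.23 for Cxcl9 and 1.06 for Cxcl10. With the control library's class shares and the knockout library's class levels, the ratio for Cxcl9 was 1.92 and for Cxcl10 1.65. With knockout shares and control levels the same ratios were 0.888 and 0.902, so the class shares alone gave slightly lower levels of both genes. Cxcr6 showed the opposite: its ratio was 0.93 from class levels alone and 9.59 from class shares alone. Cxcr3 had a ratio of 1.65 from levels and 7.53 from shares. The second value uses a control B-like level of 75.8 CPM that rests on 1 UMI in 8 cells. Cxcl16 had 0.99 from levels and 1.30 from shares.

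**Figure D1:**
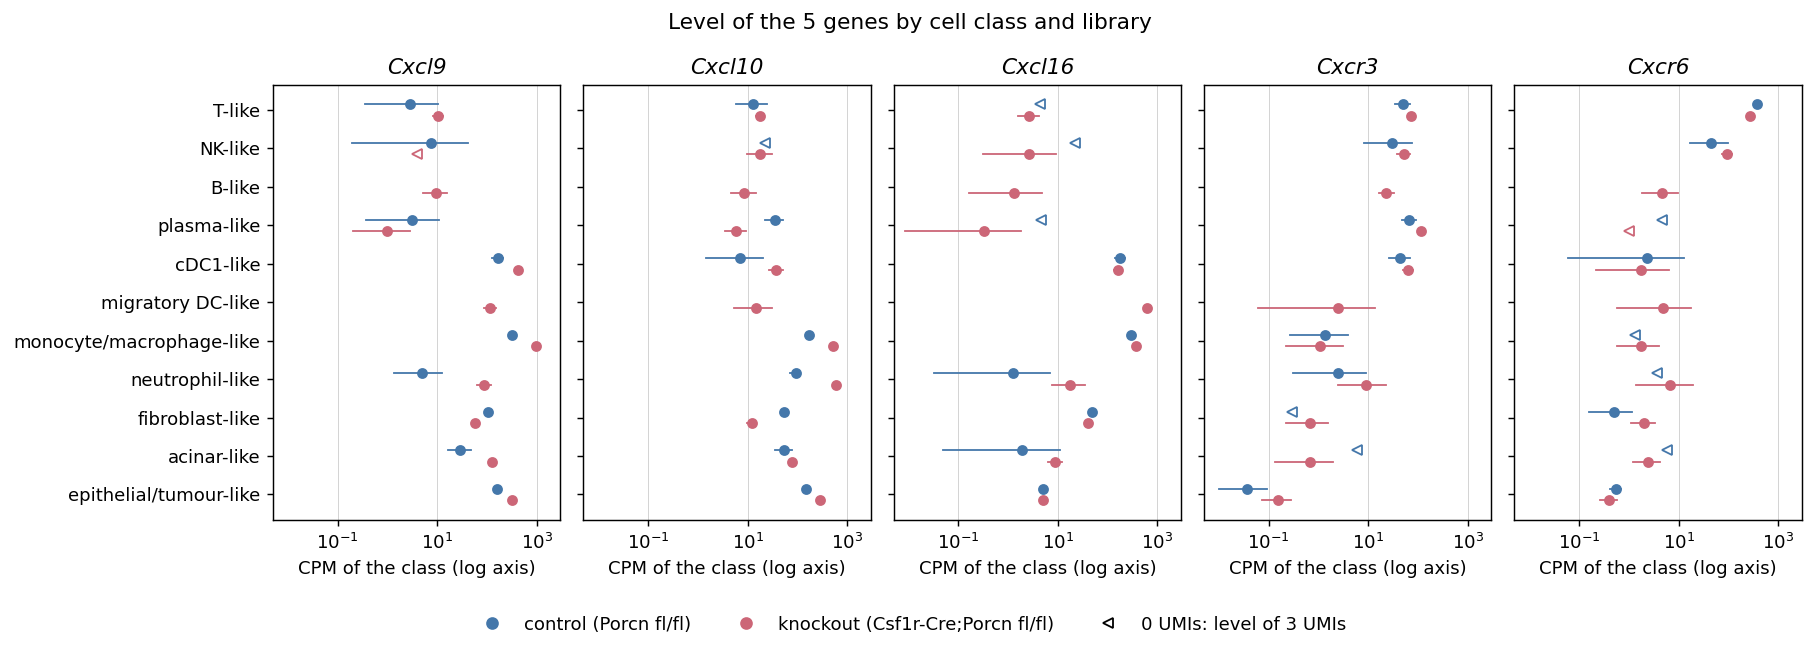
Level of each analysed gene in each cell class (CPM of the class on a log axis), with 1 point per library and lines for the 95% exact Poisson interval. Open triangles mark 0 UMIs, at the level of 3 UMIs, and class and library pairs under 30 cells are left out, as are cDC2-like cells. Cxcl9 and Cxcl10 lie higher in the knockout library in monocyte/macrophage-like and epithelial/tumour-like cells and lower in fibroblast-like cells, and Cxcr6 is highest in T-like cells, at 374 and 276 CPM.

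Cxcl9, the CXCR3 ligand known for its dependence on interferon gamma, was highest as a share of a class's UMIs in monocyte/macrophage-like cells of both libraries. There it stood at 326 CPM in the control and 967 CPM in the knockout library, a ratio of 2.96 (2.73 to 3.22). Next came cDC1-like cells, the cross-presenting dendritic cells, at 165 and 416 CPM, and epithelial/tumour-like cells at 163 and 318 CPM. In the control library the last 2 classes did not differ beyond counting error, while in the knockout library all 3 intervals were apart. The cDC1-like ratio of 2.53 rested on few cells, since 1 of 117 knockout cells held 32.7% of the class's Cxcl9 UMIs. Without the 5 highest cells of each library that ratio was 1.15. Epithelial/tumour-like cells had a ratio of 1.95 (1.91 to 1.99).

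Fibroblast-like cells went the other way for Cxcl9, from 104 CPM in the control to 56.6 CPM in the knockout library, a ratio of 0.544 (0.485 to 0.610). In the control, 62.4% of these UMIs came from 5 cells. The ratio was 0.803 without the 5 highest cells of each library and 0.924 as a mean over cells. Neutrophil-like cells held 4 control and 40 knockout UMIs of Cxcl9, of which 27 lay in 1 cell. Lymphocytes were near 0: T-like cells had 2.90 and 10.4 CPM, knockout B-like cells 9.28 CPM, and knockout NK-like cells 0 UMIs in 223 cells.

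Cxcl10, which responds to type I interferon and NF-kappa B as well as to interferon gamma, was higher in the knockout library in the macrophage, tumour and neutrophil classes and, from few UMIs, in the cDC1-like and cDC2-like classes. In monocyte/macrophage-like cells it stood at 173 CPM in the control and 532 CPM in the knockout library, a ratio of 3.07 (2.75 to 3.44). In epithelial/tumour-like cells it stood at 149 and 284 CPM, a ratio of 1.91 (1.87 to 1.95). In neutrophil-like cells it stood at 92.4 and 594 CPM, a ratio of 6.42 (4.95 to 8.43), and in the knockout library neutrophil-like and monocyte/macrophage-like cells did not differ beyond counting error. The neutrophil-like ratio was 35.3 with a stricter filter on cells (77 control and 51 knockout cells), 3.73 as a mean over cells and 3.03 with clusters weighted alike. Most of these UMIs lay in the cluster led by Cxcl2 and Acod1, which had 302 and 939 CPM of Cxcl10 and made up 45.7% of control and 75.7% of knockout neutrophil-like cells.

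In fibroblast-like cells Cxcl10 was lower in the knockout library, at 12.0 CPM against 53.2 CPM, a ratio of 0.226 (0.179 to 0.283), which was 0.514 with called doublets kept. Both fibroblast-like clusters shared this direction. One, led by Col1a2, Slit3, Dcn and Saa3, had 68.5 and 14.2 CPM of Cxcl10 and 66.2 and 18.9 CPM of Cxcl9, and made up 39% of control but 5.9% of knockout fibroblast-like cells. The other, led by Col1a2 and Mfap5, had 37.7 and 11.9 CPM of Cxcl10 and 142 and 58.9 CPM of Cxcl9. Plasma-like cells had 23 control UMIs in 7 cells and 18 knockout UMIs in 13 cells, a ratio of 0.17 (0.0865 to 0.329), over 54 and 200 cells. Cxcl10 differed from Cxcl9 in cDC1-like cells, which held 3 control and 43 knockout UMIs of it, 20 of the latter in 1 cell. cDC2-like cells held 1 control UMI in 6 cells and 91 knockout UMIs in 87 cells, a ratio of 8.74 (1.53 to 349).

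Most UMIs of the 2 CXCR3 ligands lay in tumour cells, the most abundant class. Epithelial/tumour-like cells held 69.5% of Cxcl9 UMIs in the control and 60.9% in the knockout library. Unnamed clusters that carried tumour markers added 21.7% and 25.6%. Monocyte/macrophage-like cells held 2.85% (2.65 to 3.06) of control and 7.88% (7.60 to 8.17) of knockout Cxcl9 UMIs. For Cxcl10 the epithelial/tumour-like share was 63.6% and 65.6%, and the monocyte/macrophage-like share was 1.51% and 5.24%.

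**Figure D2:**
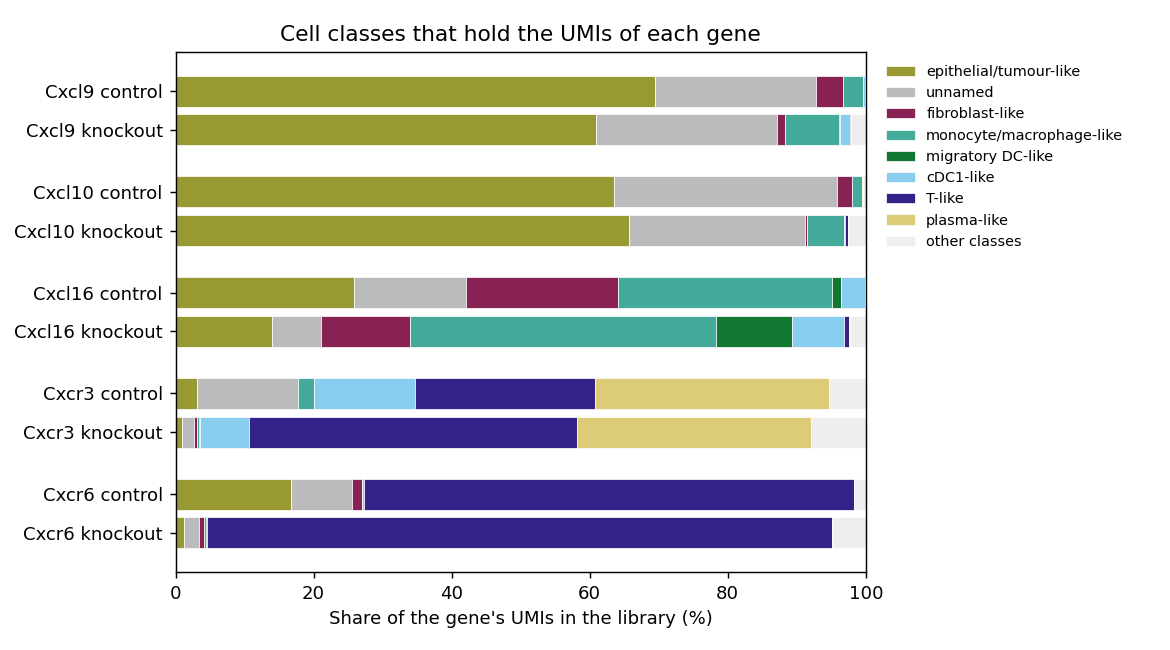
Share of each gene's UMIs held by each cell class, with 1 bar per gene and library that sums to 100%. Tumour cells and unnamed clusters hold most Cxcl9 and Cxcl10, monocyte/macrophage-like cells hold 30.9% of control and 44.3% of knockout Cxcl16, and T-like cells hold 71.1% and 90.6% of Cxcr6.

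Within the tumour cells, the CXCR3 ligands were unevenly spread. The cluster led by Ubd, Apol10b and Ifit3, an interferon-response cluster by these genes, had 675 CPM of Cxcl9 in the control and 829 CPM in the knockout library, and 791 and 783 CPM of Cxcl10. A cluster led by Ifit3b, Ifit3 and Ifit1 had 926 and 1039 CPM of Cxcl10. At the low end, the cluster led by 9030622O22Rik, Onecut2 and Samd5 had 26.1 and 31.5 CPM of Cxcl9 and 12.6 and 11.2 CPM of Cxcl10. The range of levels between tumour clusters was wider than the difference between libraries within the 2 interferon-response clusters. Both clusters are set apart by interferon-response genes, so the grouping itself limits the difference within them, and nothing is read from it.

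The 2 interferon-response clusters also took different shares of the class. The Ubd cluster made up 10.5% of control and 20.3% of knockout epithelial/tumour-like cells, and the Ifit3b cluster 2.88% and 5.76%. With each cluster given the same weight in both libraries, an alternative chosen after seeing the data, the epithelial/tumour-like ratio was 1.23 for Cxcl9 and 1.06 for Cxcl10. Without that weighting, the class as named at finer resolution 2 had a Cxcl10 ratio of 1.23. That class held other cells, 6077 in the control and 5267 in the knockout library. Other clusters went opposite ways. An unnamed cycling cluster with tumour markers, led by Prl2c2, Pimreg and Ankrd1, had 257 and 801 CPM of Cxcl9, while an unnamed cluster led by Dynap and Grem1 had 74.3 and 14.9 CPM. An unnamed cluster led by Crisp1 and Pkhd1 had 32.9 and 201 CPM of Cxcl9. The named cluster led by 2610528A11Rik, Tnnt2 and Rbp4 had 43.5 and 20.7 CPM.

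In monocyte/macrophage-like cells, Cxcl9 was higher in the knockout library in each of 4 clusters. The one led by C1qa, C1qc and C1qb, complement genes of resident-type macrophages, had 899 CPM in the control and 1787 CPM in the knockout library, a ratio of 1.99 (1.81 to 2.18). The one led by Fcgr1, Ms4a6d and Ly6i had 310 and 1124 CPM, a ratio of 3.63 (2.66 to 5.08). The 2 Arg1-led clusters had lower levels, 122 and 378 CPM in one and 55.0 and 86.1 CPM in the other.

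Cxcl10 was highest in the Fcgr1 cluster, at 1616 CPM in 35 control cells and 1419 CPM in 151 knockout cells, with an interval of the ratio from 0.757 to 1.02. That cluster made up 6.97% of control and 27.2% of knockout monocyte/macrophage-like cells. The C1q cluster had 139 and 281 CPM of Cxcl10, a ratio of 2.02 (1.59 to 2.58). Of the Arg1-led clusters, the first had 81.4 and 276.5 CPM, a ratio of 3.4 (2.16 to 5.46). The other had 47.0 and 233 CPM, a ratio of 4.95 (3.65 to 6.82). With clusters weighted alike, the class ratio was 2.30 for Cxcl9 and 1.29 for Cxcl10, against 2.96 and 3.07 as summed.

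**Figure D3:**
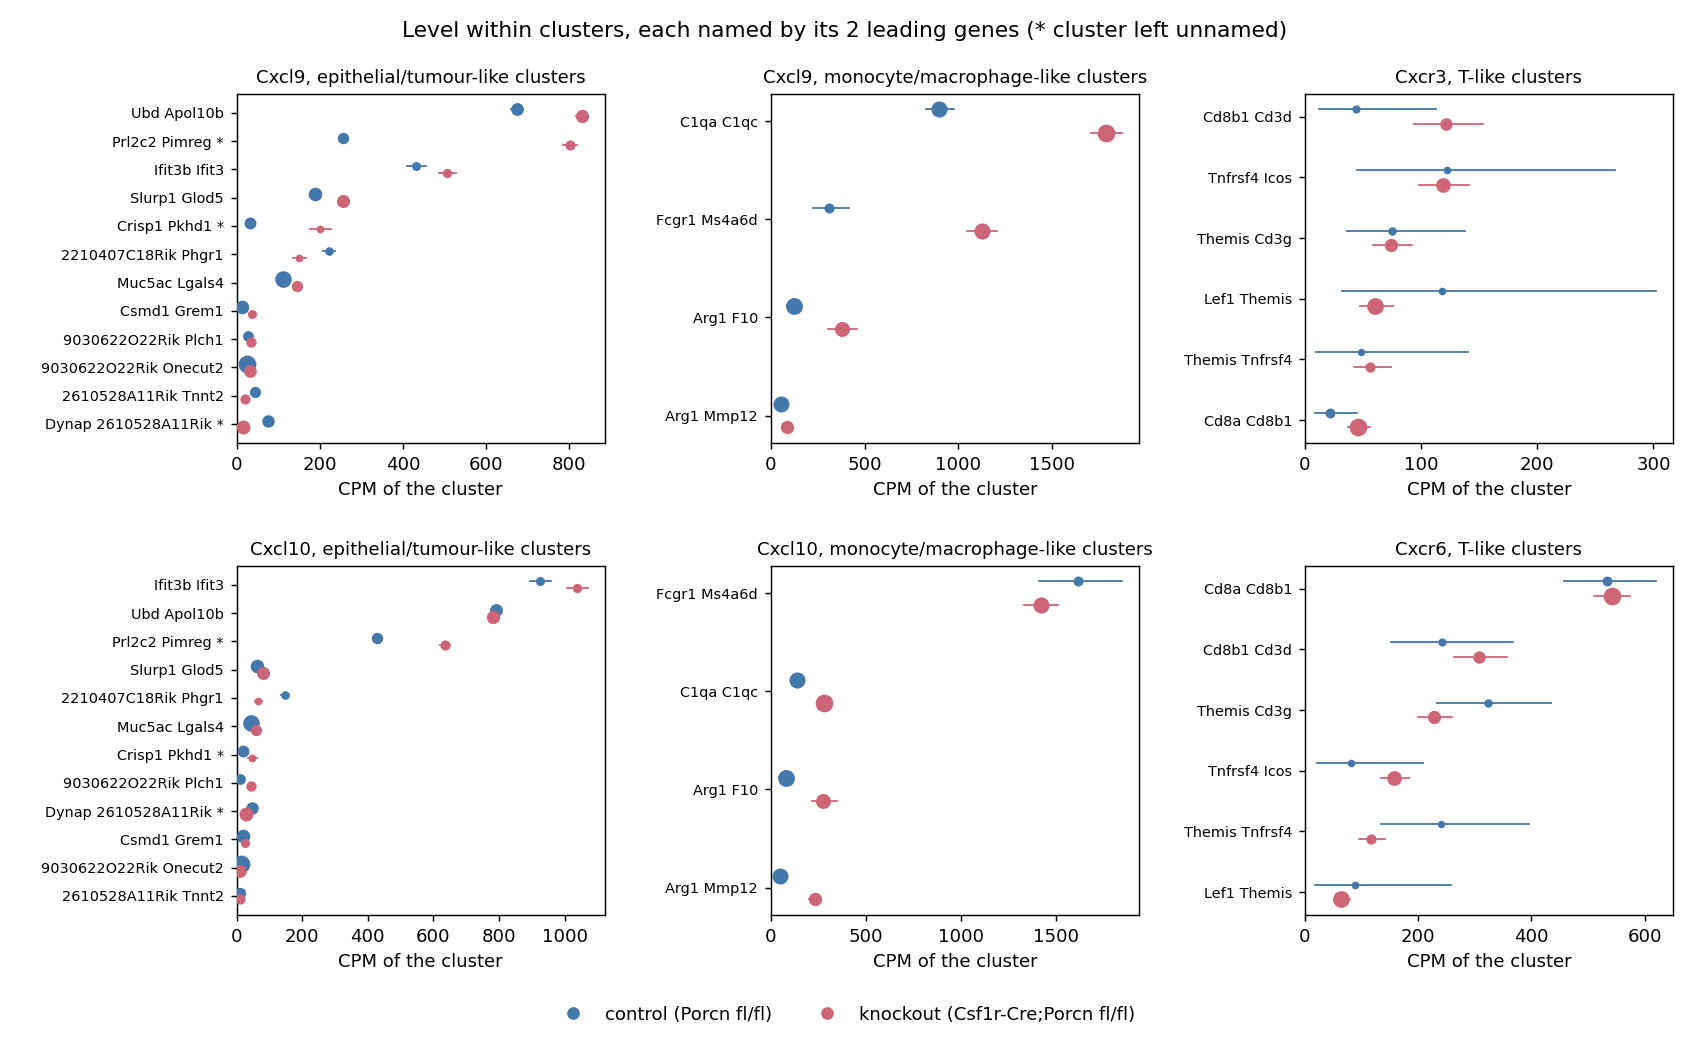
Level of Cxcl9 and Cxcl10 in clusters of tumour cells (left) and of monocyte/macrophage-like cells (middle), and of Cxcr3 and Cxcr6 in T-like clusters (right), in CPM of the cluster, with 95% exact Poisson intervals and point area growing with the number of cells. Asterisks mark clusters left unnamed. Among named tumour clusters the Ifit3b and Ubd clusters hold the highest Cxcl10, and Cxcr6 in the Cd8a cluster lies at 534 and 542 CPM.

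Gates on other genes gave the same direction within monocyte/macrophage-like cells. Cells with UMIs of Arg1, which encodes the arginine-degrading enzyme of suppressive macrophages, had 139 and 475 CPM of Cxcl9, and cells without had 996 and 1726 CPM. The Arg1 gate held 69.1% of the class in the control and 46.6% in the knockout library. Cells with UMIs of Ly6c2, a monocyte marker, had 258 and 1263 CPM of Cxcl9 and 507 and 1247 CPM of Cxcl10. They made up 8.76% of the class in the control and 26.6% in the knockout library. Gates on sparse counts favour deeper cells, and median depth was 2803 UMIs in control and 4048 UMIs in knockout cells of the class.

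Cxcl16, the CXCR6 ligand, was highest in the migratory DC-like, monocyte/macrophage-like and cDC1-like classes, with smaller differences between the libraries. Migratory DC-like cells, the Ccr7-expressing dendritic cells that travel to lymph nodes, had the highest level in the knockout library, at 627 CPM in 70 cells. In the control library they had 338 CPM from 29 UMIs in 18 cells, too few to rank. The ratio was 1.86 (1.26 to 2.83). That ratio was 2.97 without the 5 highest cells of each library and 3.62 with cells named from their own markers. Monocyte/macrophage-like cells had 298 and 370 CPM, a ratio of 1.24 (1.13 to 1.37). With each library clustered alone that ratio was 1.02. cDC1-like cells had 176 and 159 CPM, a ratio of 0.902 (0.686 to 1.2), which did not differ beyond counting error. The cDC2-like class was low, with 3 UMIs (6.52 CPM) in 87 knockout cells.

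Among stromal and tumour cells, Cxcl16 stood at 47.7 and 41.2 CPM in fibroblast-like cells, a ratio of 0.864 (0.747 to 0.999), which reversed to 1.02 with clusters weighted alike. In epithelial/tumour-like cells it stood at 5.08 and 4.96 CPM, a ratio of 0.977 (0.850 to 1.12). Migratory DC-like cells held 1.33% of Cxcl16 UMIs in the control and 10.9% in the knockout library. Cxcl16 overlaps Zmynd15 on the opposite strand by 552 bases, and the files do not state whether counting used strand, so a part of either gene's counts could belong to the other.

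The background for these differences is the share of all genes past 2-fold with 1 UMI added to each library. In monocyte/macrophage-like cells, 2 of the 3 members with at least 20 UMIs (Cxcl9 and Cxcl10) were at least 2-fold higher in the knockout library, against 2.69% of 10140 genes, and none was 2-fold lower, against 2.57%. In neutrophil-like cells both members read (Cxcl9 and Cxcl10) were 2-fold higher, against 7.82% of 5587 genes. None was 2-fold lower, against 6.98%. In epithelial/tumour-like cells 0 of 4 were 2-fold higher, against 5.16% of 16705 genes, and 0 lower, against 2.57%. In fibroblast-like cells 1 of 4 was higher (Cxcr6, 5 and 15 UMIs), against 8.15% of 13531 genes, and 1 was lower (Cxcl10), against 6.49%. In T-like cells 1 of 4 was higher (Cxcl9, 2 and 71 UMIs), against 4.13% of 11313 genes, and 0 were lower, against 6.05%. That Cxcl9 ratio had an interval of 0.954 to 30.1, and 25 of the 71 knockout UMIs lay in 1 cell. These shares use a fold and no test.

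Genes with at least 100 UMIs left fewer members and smaller backgrounds. Monocyte/macrophage-like cells kept 2 of 3 members higher, against 1.28%, and 0 lower, against 0.753%. Neutrophil-like cells had 1 of 1 higher (Cxcl10), against 8.35%, and 0 lower, against 3.86%. Fibroblast-like cells had 0 of 3 higher, against 5.33%, and 1 lower (Cxcl10), against 4.04%. Epithelial/tumour-like cells had 0 of 3 higher or lower, against 1.7% and 1.63%, and T-like cells 0 of 3, against 2.08% and 1.35%. The Cxcl9 call in T-like cells and the Cxcr6 call in fibroblast-like cells thus rested on genes with fewer than 100 UMIs.

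At equal depth, with each cell thinned to 1000 UMIs, larger shares of monocyte/macrophage-like and epithelial/tumour-like cells held the CXCR3 ligands in the knockout library. Among monocyte/macrophage-like cells, 11.9% (58 of 488) of control and 19.5% (106 of 544) of knockout cells had a Cxcl9 UMI, against 19.1% and 30.6% unthinned. For Cxcl10 the thinned shares were 9.02% and 16.5%, and for Cxcl16 19.7% and 23.7%, with overlapping intervals for Cxcl16. Among epithelial/tumour-like cells the thinned shares were 5.41% and 8.46% for Cxcl9 and 4.77% and 7.55% for Cxcl10. Among neutrophil-like cells, 5.42% (15 of 277) of control and 16.2% (29 of 179) of knockout cells had a Cxcl10 UMI. The cDC1-like share for Cxcl9 went the other way, at 15.1% (8 of 53) and 7.83% (9 of 115), with overlapping intervals. Class shares do not separate the mix of clusters. In the Ubd tumour cluster the shares were 19.3% and 20.1% for Cxcl9 and 23.9% and 20.1% for Cxcl10. In the Fcgr1 macrophage cluster they were 8.57% and 22.7% for Cxcl9 and 34.3% and 33.3% for Cxcl10.

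Lymphocytes, which should lack the ligands, give the background for these shares. Of 440 thinned knockout B-like cells, 0.682% had a Cxcl9 UMI, 1.59% a Cxcl10 UMI and 0 a Cxcl16 UMI, which allows a share of up to 0.682%. Their median depth before thinning was 2963 UMIs. T-like cells had a Cxcl9 UMI in 0.546% of control and 0.684% of knockout cells. The fibroblast-like share for Cxcl9 was 3.01% and 3.30%, so the lower fibroblast level in CPM was not matched by a lower share of cells. For Cxcl10 the fibroblast-like share was 2.56% and 0.923%. The latter lies within the interval of the knockout B-like share (0.642% to 3.25%), so it was not told apart from that background. The control library had only 7 thinned B-like cells, too few for a background.

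**Figure D4:**
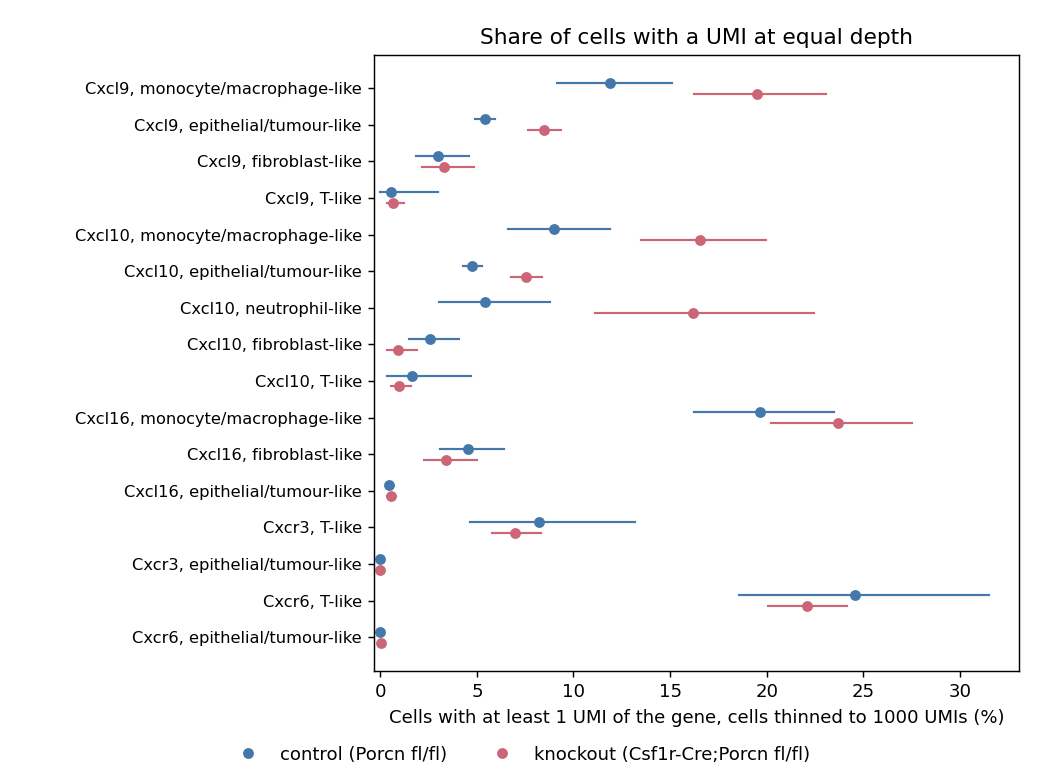
Share of cells with at least 1 UMI of the gene after thinning each cell to 1000 UMIs, by gene, class and library, with 95% Clopper-Pearson intervals. The knockout points lie to the right of the control points for Cxcl9 and Cxcl10 in monocyte/macrophage-like and epithelial/tumour-like cells, and the intervals overlap for Cxcr3 and Cxcr6 in T-like cells.

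The 2 CXCR3 ligands tended to occur in the same tumour cells. Of thinned control epithelial/tumour-like cells with a Cxcl9 UMI, 26.7% also had a Cxcl10 UMI, against 3.51% of the rest, and in the knockout library the shares were 29.8% and 5.50%. In monocyte/macrophage-like cells the same shares were 20.7% and 7.44% in the control and 23.6% and 14.8% in the knockout library. A UMI of Cxcl9 and one of Cxcl16 met in 14 of 488 control and 35 of 544 knockout monocyte/macrophage-like cells.

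Cxcr3, the receptor for CXCL9 and CXCL10, was found in T-like, plasma-like, cDC1-like and NK-like cells. Plasma-like cells, the antibody-secreting cells, had the highest level, at 67.1 CPM in the control and 115 CPM in the knockout library, a ratio of 1.72 (1.25 to 2.41) over 54 and 200 cells. That ratio lay between 1.51 and 3.63 over the alternatives tried. At 1000 UMIs per cell, 0 of 54 control plasma-like cells had a Cxcr3 UMI, which allows a share of up to 5.56%, against 14% of 200 knockout cells, and the unthinned shares were 33.3% and 56.5%. T-like cells had 49.3 CPM (34 UMIs in 192 cells) and 71.3 CPM (488 UMIs in 1643 cells), a ratio of 1.45 (1.02 to 2.11). With T-like clusters weighted alike the ratio was 1.03.

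cDC1-like cells had 44.1 and 64.5 CPM of Cxcr3, a ratio of 1.46 (0.874 to 2.57), which was 2.27 without the 5 highest cells of each library. Knockout NK-like cells had 51.8 CPM. In the control library, plasma-like, T-like and cDC1-like cells did not differ beyond counting error. In the knockout library, plasma-like cells were apart from T-like cells, while T-like, cDC1-like and NK-like neighbours overlapped. Knockout B-like cells had 23.2 CPM. Tumour cells, which should lack the receptor, had 0 thinned cells with a Cxcr3 UMI among 7492 control and 4292 knockout cells, which allows up to 0.04% and 0.0699%. Before thinning their median depths were 12714 and 13774 UMIs, against 2822 and 3342 UMIs in T-like cells.

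The sum of Cxcr3 UMIs shifted towards T-like cells, which held 26.2% (18.8 to 34.6) of them in the control and 47.5% (44.4 to 50.6) in the knockout library. Plasma-like cells held 33.8% and 33.9%. The thinned share of T-like cells with a Cxcr3 UMI was 8.20% and 6.96%, and the unthinned share 14.1% and 21.9%. The thinned share goes against the CPM, and the ratio of shares was 0.849 at 1000 UMIs and 1.8 at 2000 UMIs, so no order is read from it.

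Cxcr6, the receptor for CXCL16, was by contrast concentrated in T-like cells. T-like cells had 374 CPM in the control and 276 CPM in the knockout library, a ratio of 0.737 (0.647 to 0.843). NK-like cells had 45.2 CPM (6 UMIs) and 94.6 CPM (73 UMIs), a ratio of 2.09 (0.917 to 5.89). All other classes of at least 50 cells lay at or below 15.2 CPM. Plasma-like cells, the highest in Cxcr3, had 0 Cxcr6 UMIs in 54 control and 200 knockout cells. Epithelial/tumour-like cells had 61 and 27 UMIs, or 0.55 and 0.406 CPM.

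The lower Cxcr6 level of knockout T-like cells was not seen in the cluster where Cxcr6 was highest. There, in cells led by Cd8a, Cd8b1, Nkg7 and Ifng, it stood at 534 CPM in 81 control cells and 542 CPM in 466 knockout cells, a ratio of 1.02 (0.864 to 1.2). That cluster made up 42.2% of T-like cells in the control and 28.4% in the knockout library. A cluster led by Lef1, a factor of naive and memory T cells, had 88.5 CPM (3 UMIs in 17 cells) and 64.4 CPM (77 UMIs in 403 cells), and made up 8.85% of control and 24.5% of knockout T-like cells. With clusters weighted alike the T-like ratio was 0.989.

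The remaining T-like clusters differed in their receptors. Cells of the cluster led by Tnfrsf4, Icos, Ctla4 and Il2ra had 123 and 119 CPM of Cxcr3 and 81.7 and 158 CPM of Cxcr6. A second Cd8b1 cluster had 44.1 and 121 CPM of Cxcr3, a ratio of 2.75 (1.03 to 10.4) from 4 control UMIs. The Cd8a cluster with the highest Cxcr6 had the lowest Cxcr3, at 21.9 and 45.7 CPM.

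Gates within T-like cells divided the Cxcr6 difference unevenly. Cells with Cd8a or Cd8b1 UMIs had 442 and 387 CPM, a ratio of 0.878 (0.757 to 1.02). Cells with Cd4 UMIs and none of Foxp3, Cd8a or Cd8b1 had 365 CPM in 22 control cells and 165 CPM in 314 knockout cells, a ratio of 0.452 (0.309 to 0.683). Cells with Foxp3 UMIs, the regulatory T cells, had 140 CPM of Cxcr6 and 119 CPM of Cxcr3 in 211 knockout cells, and only 7 control cells fell in that gate.

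Checkpoint genes also divided the receptors. Cells with UMIs of Pdcd1, Havcr2 or Lag3, inhibitory receptors of activated T cells, had 436 and 343 CPM of Cxcr6, and cells without had 145 and 149 CPM. Cxcr3 had the opposite order, with 38.6 and 59.5 CPM in the gate and 89.6 and 93.4 CPM outside it. In the control these rest on 21 and 13 UMIs with overlapping intervals (23.9 to 59.0 and 47.7 to 153). In the knockout library the intervals were apart (52.6 to 67.1 and 81.5 to 106.5). The gate held 68.8% of T-like cells in the control and 52.9% in the knockout library.

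At equal depth, both receptors were seen together in few cells. Of thinned T-like cells with a Cxcr3 UMI, 20% (3 of 15) in the control and 29.5% (33 of 112) in the knockout library had a Cxcr6 UMI, against 25% and 21.5% of the rest. Unthinned, 40.7% (11 of 27) and 48.5% (174 of 359) of T-like cells with a Cxcr3 UMI had a Cxcr6 UMI, against 44.9% and 41.8% of the rest. The thinned shares with a Cxcr6 UMI were 24.6% and 22.1% of all T-like cells, with overlapping intervals, and the unthinned shares 44.3% and 43.3%.

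The genes known to act upstream of the CXCR3 ligands were read in monocyte/macrophage-like cells. Of 18 interferon and TNF input genes with at least 20 UMIs, 1 was at least 2-fold higher in the knockout library and 0 were 2-fold lower, against 2.69% and 2.57% of all genes, with a median log2 ratio of 0.22 against -0.03 over all genes. The one was Ifnb1, which encodes interferon beta, with 3 control and 39 knockout UMIs and a log2 ratio of 3.0. Socs1, a feedback inhibitor of interferon signalling, had a log2 ratio of 0.67 (29.6 and 47.3 CPM), and Stat2, a signal transducer of type I interferon, 0.65 (86.0 and 135 CPM). Ifng, encoding interferon gamma, was named after its values were seen: in T-like cells it stood at 540 CPM in the control and 183 CPM in the knockout library, a ratio of 0.339 (0.302 to 0.381). In NK-like cells it stood at 82.8 CPM (11 UMIs) and 127 CPM (98 UMIs), a ratio of 1.53 (0.82 to 3.17). Over all kept cells it stood at 2.73 and 10.9 CPM.

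Among 6 genes read of the list of protein processing and decoy receptors, 1 was 2-fold higher and 1 was 2-fold lower in monocyte/macrophage-like cells, against 2.69% and 2.57% of all genes, with a median log2 ratio of -0.09. Dpp4, the protease that truncates CXCL10, had 4 and 26 UMIs (log2 ratio 2.11), and Ackr3, a decoy receptor for CXCL11 and CXCL12, had 44 and 26 UMIs (log2 ratio -1.06). Sdc1, a proteoglycan that was also a naming marker of plasma cells, had a log2 ratio of -0.75. Adam10 and Adam17, the sheddases of CXCL16, had log2 ratios of -0.22 and 0.05, and were named after their values were seen.

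The list of other T cell attracting chemokines also held platelet chemokines. Of its 7 genes read in monocyte/macrophage-like cells, 2 were 2-fold higher and 3 were 2-fold lower, against 2.69% and 2.57% of all genes. Their median log2 ratio was -0.17. Of the 5 with at least 100 UMIs, 2 were higher and 1 was lower, against 1.28% and 0.753%, with a median of 0.67. Ppbp, a platelet chemokine, had 20 control and 0 knockout UMIs. Cxcl13, which attracts CXCR5 cells, stood at 45.0 and 185 CPM (log2 ratio 2.03), and Pf4, the platelet factor 4 gene, at 946 and 280 CPM (log2 ratio -1.76).

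On the receptor side, 10 transcription factors tied to Cxcr3 or Cxcr6 were read in T-like cells. Of these, 2 were 2-fold higher and 1 was 2-fold lower in the knockout library, against 4.13% and 6.05% of all genes, with a median log2 ratio of -0.41 against -0.08 over all genes. Klf2, a factor of quiescent recirculating T cells, stood at 29.0 and 195 CPM (log2 ratio 2.68), and Tcf7, a factor of naive and stem-like T cells, at 66.7 and 139 CPM (1.03). Eomes, a T-box factor that was also a naming marker of NK cells, stood at 45.0 and 19.1 CPM (-1.27).

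Chemokine receptor signalling genes differed little in T-like cells, with 0 of 12 past 2-fold in either direction, against the same shares of all genes, and a median log2 ratio of -0.14. Rgs16, a regulator of G protein signalling, had the largest difference, at 223 and 138 CPM (log2 ratio -0.70), followed by Gng2 and Arrb1, both at -0.38. Of 12 other homing receptors read, 3 were 2-fold higher and 1 was 2-fold lower, against 4.13% and 6.05% of all genes, with a median log2 ratio of 0.58. Cxcr5, the receptor for CXCL13, had 1 and 56 UMIs, a ratio interval of 0.971 to 227, and Cx3cr1, the fractalkine receptor, stood at 112 and 41.8 CPM (-1.43).

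Likeness between genes was described by Pearson's r of log2(CPM + 10) over 19 class and library profiles of at least 50 cells, which share libraries and depth, among 16094 genes. The genes most like Cxcl9 were Ifi211, Asah1, Tor3a, Alpk1 and Parp12 (r from 0.924 to 0.882). Those most like Cxcl10 were Oas2, Oas3, Ninj1, Oas1g and Rtp4 (0.931 to 0.878). For Cxcl16 the highest was its overlapping neighbour Zmynd15 (0.926), followed by Lacc1, Tnfrsf11a, Cttnbp2nl and Tmeff1 (0.905 to 0.897).

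For Cxcr6 the genes most alike were Zap70, Gm39323, Cd3e, Cd247 and Cd27 (0.99 to 0.982). For Cxcr3 they were Tg, Trp53i11, Bdh1, Hist1h1a and Rad54b (0.90 to 0.85). Among the members, Cxcl9 and Cxcl10 had an r of 0.614, Cxcl9 and Cxcl16 0.686, and Cxcr3 and Cxcr6 0.435.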

How the data were processed

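Raw UMI counts per gene and cell were deposited by the authors as 1 matrix per library, made with Cell Ranger 8.0.0 per the file headers; the submitters' processing notes name Cell Ranger 3.1.3 and mm10. Barcodes with fewer than 500 genes or over 15% mitochondrial counts were dropped, and Scrublet doublets were removed (148 control, 1.27%, and 341 knockout, 3.16%). Cells were clustered without the 6 genes (scanpy 1.11.5; 2000 variable genes, 30 components, 15 neighbours, Leiden resolution 1), and clusters were named from marker lists. UMIs were summed per class and scaled to CPM. Intervals are exact Poisson for levels, conditional binomial for ratios and Clopper-Pearson for shares, all at 95%. Where no cell had a UMI, the share allowed is 3 divided by the number of cells. It is lower than the Clopper-Pearson limit, which was 0.835% for Cxcl16 in thinned knockout B-like cells. Scripts were tested on simulated data.

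The members, markers and lists were chosen with earlier results of these data known. Genes named besides the members are the 3 with the largest absolute log2 ratio of each list in its class and the 5 most like each member. Levels are given for classes of at least 50 cells in a library, with smaller groups given their cell numbers, and counts past 2-fold for classes of at least 100 cells in both. Depth was 173934025 control and 137527647 knockout UMIs. Protein sequences were not used here, and 1 gene that this rule names is not reported here.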

Additional observations from a re-analysis of the deposited data

Results flagged for a closer look

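The ligands differed in opposite directions between classes, and the difference between classes was not tested. Cxcl9 had a knockout over control ratio of 0.544 in fibroblast-like cells and of 1.95 in epithelial/tumour-like cells and 2.96 in monocyte/macrophage-like cells. Cxcl10 had a ratio of 0.226 in fibroblast-like cells and of 1.91 to 6.42 in epithelial/tumour-like, monocyte/macrophage-like and neutrophil-like cells. Cxcl16 had a ratio of 0.864 in fibroblast-like cells and of 1.24 in monocyte/macrophage-like cells. Of the fibroblast-like control UMIs, 62.4% of Cxcl9 and 62.0% of Cxcl10 lay in 5 cells.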

How the results depend on the processing

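Ratios are knockout over control, and the cause of each move was not tested. Of 125 alternative values of the main results, 81 stayed within the counting interval (for counts of genes, within 1.5 times) and 44 moved. The ratio of shares of T-like cells with a Cxcr3 UMI crossed 1, from 0.849 at 1000 UMIs to 1.8 at 2000 UMIs. Unthinned it was 1.55, also past 1, and that value counts among the 81 because the main interval was 0.438 to 1.785. Of 85 for single classes, 64 stayed, 20 moved and 1 reversed, which was Cxcl16 in fibroblast-like cells at 1.02 with clusters weighted alike. Over all cells, Cxcl9 was 1.52 as a mean over cells and 1.7 without the 5 highest cells of each library, Cxcl10 was 1.31 as a mean over cells, and Cxcr6 was 8.42 without the highest cells. In epithelial/tumour-like cells, Cxcl9 was 2 with the strict and 1.76 with the loose cell filter, 1.61 with doublets kept, 1.78 as a mean over cells, 1.9 without the highest cells, 1.8 at resolution 0.5, 1.55 at resolution 2, 2.07 with the members among the clustering genes, 1.75 with each library clustered alone and 1.23 with clusters weighted alike. Cxcl10 there was 1.83, 1.72, 1.57 and 1.73 under the first 4 of these, then 1.74 at resolution 0.5, 1.23 at resolution 2, 1.97 with the members kept, 1.63 with cells named from their own markers, 1.61 with libraries alone, 1.06 weighted alike and 1.63 with the unnamed tumour clusters. In monocyte/macrophage-like cells, Cxcl9 was 3.5 without the highest cells, 2.67 with own markers, 2.57 with libraries alone and 2.3 weighted alike. Cxcl10 was 2.68 as a mean over cells and 4.21, 2.69, 2.64 and 1.29 under those 4. Cxcl16 was 1.12 with the loose filter, 1.11 at resolution 0.5 and 1.02 with libraries alone. In T-like cells, Cxcr6 was 0.989 weighted alike. At 100 UMIs or more, the genes past 2-fold were 3.43% in T-like (10.2% at 20 UMIs), 3.33% (7.73%) in epithelial/tumour-like, 9.36% (14.6%) in fibroblast-like and 2.04% (5.27%) in monocyte/macrophage-like cells, and the context list genes past 2-fold in the last were 4 against 9.

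Weighting clusters alike and adding the unnamed tumour clusters were chosen after seeing the data. Clustering each library alone gave no value for Cxcl9 or Cxcr3 in cDC1-like cells or Cxcl16 in migratory DC-like cells, where a library lacked the class. No paired analysis was possible because each genotype had 1 pooled library. Intervals cover counting error only and are too narrow for genes whose UMIs sit in few cells. Mouse to mouse spread within a pool could not be measured. Depth limits the receptors most: the control T-like values rest on 34 UMIs of Cxcr3 and 258 UMIs of Cxcr6.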

Other observations

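Neutrophil-like cells (291 control, 181 knockout) were higher in the knockout library in other genes of the pathway as well as in Cxcl10, but the class was made of different cells in the 2 libraries. The cluster led by Cxcl2 and Acod1 made up 45.7% of control and 75.7% of knockout cells, that led by Retnlg and S100a9 35.7% and 18.2%, and that led by S100a9 and Camp 18.6% and 6.08%. The summed neutrophil markers stood at 166000 and 84020 CPM, and their part in the differences was not tested. Of 16 interferon and TNF input genes read there, 5 were at least 2-fold higher and 0 were 2-fold lower, against 7.82% and 6.98% of all genes, with a median log2 ratio of 0.87 against -0.03 over all genes. All 3 genes read of the list of T cell attracting chemokines were 2-fold higher, against 7.82% of all genes, with a median log2 ratio of 2.30. These genes were named after their values were seen: Ccl4, a chemokine gene, stood at 1632 CPM in the control and 8030 CPM in the knockout library, Ccl3 at 1148 and 3989 CPM, and Tnf at 226 and 647 CPM.

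In 2 small classes the CXCR3 ligands were also read, with few cells in the control library. Acinar-like cells, named from digestive enzyme genes of the pancreas, had 29.0 CPM of Cxcl9 in 41 control cells and 124 CPM in 332 knockout cells. The ratio was 4.27 (2.57 to 7.69), and 13 of the 15 control UMIs lay in 1 cell. Summed acinar markers stood at 8155 and 28890 CPM in this class. Whether its cells are normal acinar cells or tumour cells with acinar transcripts was not tested. Knockout cDC2-like cells had 243 CPM of Cxcl9, 76.8% of it in 1 of 87 cells, and 198 CPM of Cxcl10.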
